A study of Mus musculus with 4 samples.

Results

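The T lineage cells that form when a Notch ligand is present were compared with the bone marrow progenitors they came from, using 2 of the 4 arrays of the series. One array held lymphoid-primed multipotent progenitors (LMPPs), a population able to give lymphoid and myeloid cells. The other held control T lineage cells, which carried an empty retroviral vector and had grown with Notch ligand. Both arrays were chosen by their sample titles alone. All cells were from wild-type C57BL/6 bone marrow. The LMPPs were a pool sorted without lineage markers, with Sca1 and Kit and a high level of Flt3. They spent 48 hours in a transduction medium with IL-3, IL-6, stem cell factor and Flt3 ligand before RNA was taken. The control cells began as the same sorted progenitors, received the VEX vector in that medium and were sorted 48 hours later as VEX positive. They then grew on OP9-DL4, a bone marrow stromal line made to present the Notch ligand DL4, with IL-7 at 1 ng/ml and Flt3 ligand at 5 ng/ml. On day 10 they were sorted as live CD45.2 positive cells that bore Thy1 and CD25 and lacked the myeloid markers Mac1 and Gr1. The remaining 2 arrays held day 10 cells from the same gate that carried a Tcf1 retrovirus and had grown on OP9 without the ligand (Tcf1 cells). They serve here as a measure of replicate spread and are given beside some values.

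Notch1 is the receptor that directs blood progenitors into the T lineage when stroma presents a Delta-like ligand. The ligand frees the intracellular part of the receptor, which enters the nucleus and joins the DNA-binding protein RBPJ and a Mastermind coactivator. In the thymus, cells that receive this signal turn on Gata3, Tcf7 and Bcl11b, gain CD25, build the CD3 signalling complex and start to recombine their T cell receptor genes. Over the same stages they lose the transcription factors of stem and progenitor cells and the ability to form myeloid, dendritic and B cells.

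Each value is a log2 signal, so a difference of 1 is 2-fold. With 1 array on each side there was no replicate of either group and no test. Genes at least 2-fold apart were counted, and "higher" and "lower" are used of these genes unless a value says otherwise. Of 19938 genes, 1102 (5.53%) were at least 2-fold apart. In the control cells 632 (3.17%) were higher and 470 (2.36%) were lower. The higher genes made up 57.4% of those at least 2-fold apart, and the excess depended on the minimum. At 1.5-fold 1302 genes were higher and 1392 lower, and at 4-fold 194 (0.973%) were higher and 109 (0.547%) lower, 1.52% in all. The 2-fold shares over all genes, 5.53% either way, 3.17% higher and 2.36% lower, are the background for the list counts below. Among genes above the median of mean signal, 8.90% were at least 2-fold apart. Over all genes the median difference was -0.01. The array medians over genes were 7.49 in both groups. Replicate spread could be read only from the Tcf1 pair, in which 65 genes (0.326%) were at least 2-fold apart and the SD of the difference was 0.24, against 0.55 between LMPPs and control cells. Each of the 1102 genes differed by more than that pair did for the same gene, but so did 55.6% of all genes. Stroma, cytokines, days in culture and sort gate all changed together between LMPPs and control cells, and their effects cannot be told apart. The control cells also carried a vector, which the labels do not state for the LMPP array. Any effect of the vector cannot be told apart from the others. In such bulk samples a lower share of cells of one type and less RNA per cell cannot be told apart either.

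**Figure D1:**
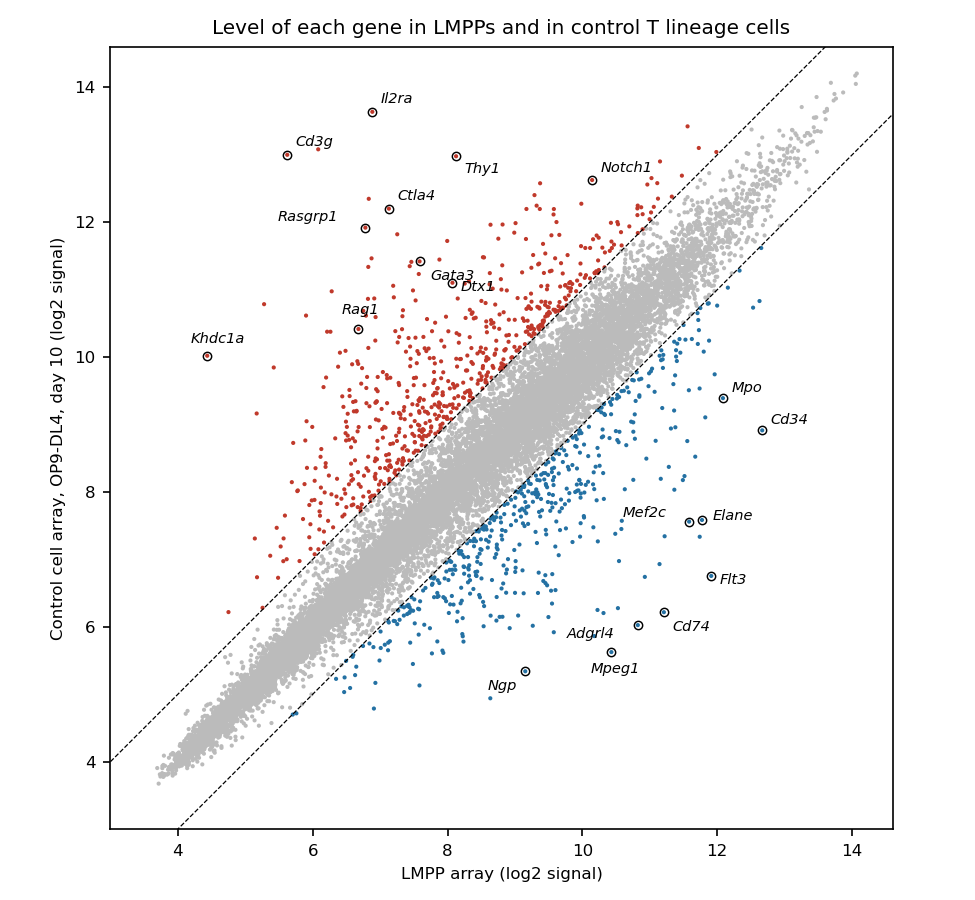
Each point is 1 of 19938 genes, with its log2 signal in the LMPP array on the horizontal axis and in the control cell array on the vertical axis; dashed lines mark 2-fold. The 632 higher genes (red) include Cd3g, Il2ra and Thy1, and the 470 lower genes (blue) include Flt3, Cd74 and Adgrl4.

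Of the sort gate genes, Il2ra and Thy1 went with the gate of the control cells and Flt3 with that of the LMPPs. Ly6a, which encodes the Sca1 of the LMPP gate, is not analysed here. Il2ra, which encodes CD25, read 6.88 in LMPPs and 13.64 in control cells, a 108-fold difference, and Thy1 read 8.13 and 12.98. Flt3, whose high level defines LMPPs, read 11.91 in LMPPs and 6.75 in control cells, 35.7-fold lower. In the Tcf1 arrays Flt3 read 10.97 and 11.03, close to the LMPP level, while Il2ra read 12.91 and 12.99. Kit, the stem cell factor receptor of progenitors and of the earliest T cells, was higher in control cells by 1.71. Itgam, which encodes Mac1, read 8.25 and 7.03, and Ly6g, one of the proteins seen by the Gr1 antibody, read 5.41 and 5.34. These genes encode markers of the gates and are a check of the samples, not results. Flt3 and Kit were markers of the LMPP gate only, and the control cells were not sorted by them. Ptprc, which encodes CD45, differed by 0.94.

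Some Notch signalling genes were higher in the control cells, among them 2 receptors, a coactivator and several targets. Notch1 read 10.14 in LMPPs and 12.63 in control cells, against 10.28 and 10.60 in the Tcf1 arrays. Notch3, itself a target of Notch1 in thymocytes, read 7.45 and 9.15, and Maml2, a Mastermind coactivator, read 7.65 and 9.37. Of 19 measured receptors and machinery genes these 3 were the ones at least 2-fold higher and none was at least 2-fold lower, with a list median of 0.12. Notch2 differed by -0.69, Notch4 by -0.06 and Rbpj by -0.37. Lfng, a glycosyltransferase that tunes Notch1 for Delta-like ligands, differed by 0.67. The protease genes that release the intracellular domain lay close to 0, with Adam10 at -0.21, Psen2 at -0.05, Ncstn at 0.02 and Psenen at 0.04.

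Of 19 measured Notch target genes, 9 were at least 2-fold higher and none was at least 2-fold lower, with a median of 0.75. The 9 were Hes1, Dtx1, Nrarp, Il2ra, Notch3, Gata3, Bcl11b, Lef1 and Cd3g. Apart from Hes1, Dtx1 and Nrarp, each is also counted in another list here. The list was written with earlier results of these data known, so its direction is not independent evidence. Hes1, a repressor that Notch induces in many cells, read 6.94 in LMPPs, 9.52 in control cells, and 6.73 and 6.79 in the Tcf1 arrays. Dtx1, a Notch-induced ubiquitin ligase, read 8.07 and 11.10, and in the Tcf1 arrays 8.08 and 7.97. Nrarp, a feedback inhibitor of the Notch complex, read 6.94 and 9.08, and in the Tcf1 arrays 6.33 and 6.51. For these 3 genes the control array alone was high, and the LMPP and Tcf1 arrays lay well below it. Other members stayed within 2-fold. Ptcra, the pre-T cell receptor alpha chain, differed by 0.68, Id3 by 0.75, Heyl by 0.73 and Trib2 by 0.63. Myc, a growth regulator that Notch drives in T cell leukaemia, read 12.26 and 12.29. Hes5 (0.02) and Hey1 (-0.08), targets in other tissues, were level. Without Il2ra, which the gate selects, 8 of 18 targets were at least 2-fold higher and the median was 0.74.

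T lineage transcription factors were higher in part. Of 23 measured, 8 were at least 2-fold higher and none was at least 2-fold lower, with a median of 0.66. Gata3, needed from the first T cell stages, read 7.58 in LMPPs and 11.42 in control cells, 14.3-fold higher. Lef1, a partner of the Tcf1 family, read 6.93 and 10.59, and Ets1, an Ets factor of lymphocytes, 7.34 and 10.70. Bcl11b, which closes off other fates at commitment, read 7.42 and 10.28. The Tcf1 arrays lay between the LMPP and control arrays for all 4 of these genes, for example at 9.95 and 10.29 for Gata3 and at 9.40 and 9.60 for Bcl11b. Smaller differences were seen for Ikzf2 (1.66), Zfpm1, a GATA cofactor (1.25), Runx1 (1.23) and Gfi1 (1.21). Several other factors were within 2-fold. Ikzf1 read 11.32 in both arrays, Satb1 differed by 0.14, Runx3 by -0.05 and Myb by 0.56, while Tox (0.89) and the E protein gene Tcf12 (0.89) came near 2-fold. Among the 7 E protein and Id genes, none was at least 2-fold apart. The extremes there were Tcf12 and Id2, an inhibitor of E proteins that innate lymphoid cells need, at -0.70. Tcf7 is not analysed here.

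Chains of the CD3 complex, which carries the signal of the T cell receptor and of its precursor, stood out in the control cells. Of 6 measured genes of the CD3 and pre-T cell receptor complex, 5 were at least 2-fold higher and the median was 3.13. Cd3g read 5.62 in LMPPs and 13.001 in control cells, the largest difference of any named gene at 166-fold. It read 6.48 and 6.64 in the Tcf1 arrays. Cd3d read 5.71 and 8.73, with 5.96 and 5.78 in the Tcf1 arrays. Cd3e read 7.32 and 10.41, with 7.45 and 7.42 in the Tcf1 arrays. For Cd3d and Cd3e the control array was thus high and the other 3 arrays lay together, while Cd3g was also somewhat above LMPPs in the Tcf1 arrays. Cd247, the zeta chain, read 7.23 and 10.39, and Trat1, an adaptor that stabilises the receptor complex, read 5.28 and 10.79. For these last genes the Tcf1 arrays were intermediate, at 8.69 and 9.08 for Cd247 and at 7.81 and 8.12 for Trat1. Ptcra was the member within 2-fold, at 6.82 and 7.50.

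**Figure D2:**
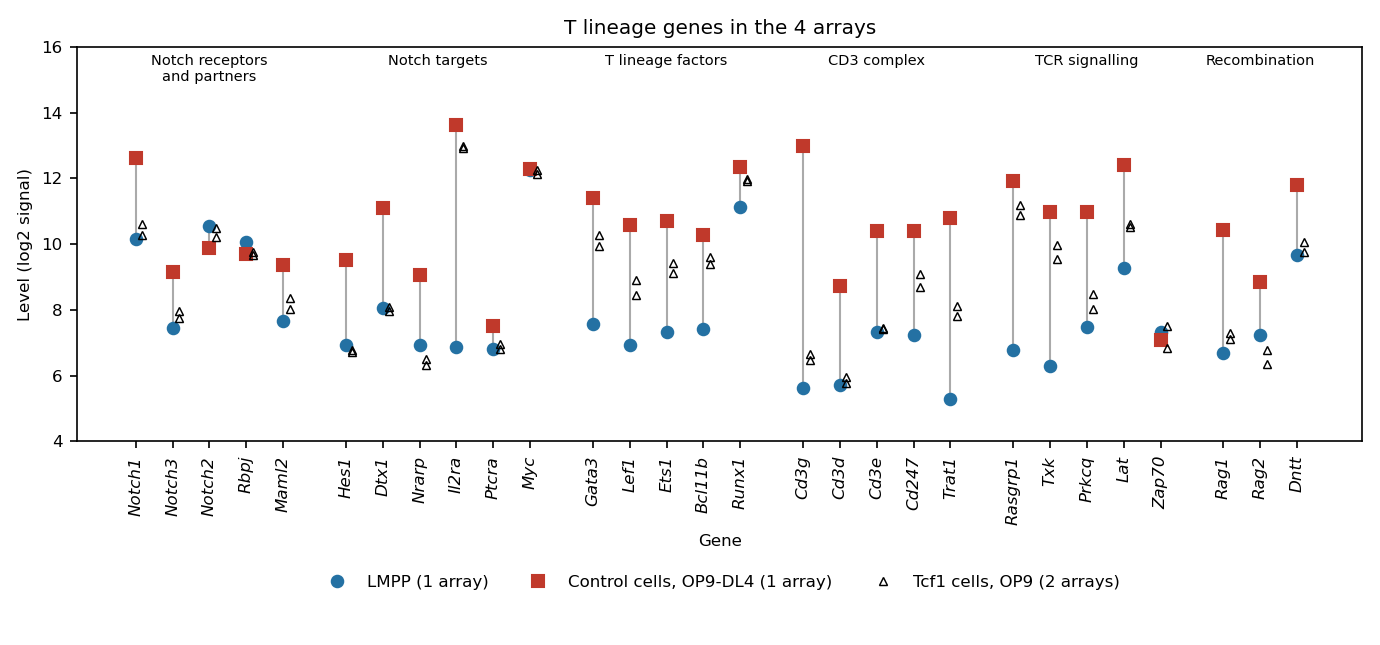
Log2 signal (vertical axis) of T lineage genes (horizontal axis) in the LMPP array (blue circles), the control cell array (red squares) and the 2 Tcf1 arrays (open triangles); grey lines join LMPPs and control cells. Control cells lie at least 2-fold above LMPPs for Hes1, Dtx1, Nrarp and all 5 CD3 complex genes drawn, while Myc, Rbpj and Zap70 stay within 2-fold.

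The sequences before the starts of Cd3g, Cd3e and Ptcra are shown because these genes of one receptor complex differed so unequally and because each holds the core that RBPJ binds. They are the 250 bases before the annotated start, 5′ to 3′ on the strand of the gene, from RefSeq with build GRCm38.p6, and capitals mark the core TGGGAA. Positions are chr9:44980432-44980681, minus strand, for Cd3g, chr9:45009612-45009861, minus strand, for Cd3e, and chr17:46763713-46763962, minus strand, for Ptcra.
Cd3g: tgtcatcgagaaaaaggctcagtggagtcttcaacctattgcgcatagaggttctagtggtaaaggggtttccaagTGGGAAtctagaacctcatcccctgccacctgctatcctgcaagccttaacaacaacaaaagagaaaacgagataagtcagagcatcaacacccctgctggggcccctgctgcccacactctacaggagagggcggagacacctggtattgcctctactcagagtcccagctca
Cd3e: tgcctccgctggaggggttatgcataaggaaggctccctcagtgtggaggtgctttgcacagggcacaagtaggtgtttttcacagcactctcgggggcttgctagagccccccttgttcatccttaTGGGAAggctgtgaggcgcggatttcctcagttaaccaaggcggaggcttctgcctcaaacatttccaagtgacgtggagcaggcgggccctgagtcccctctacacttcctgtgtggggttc
Ptcra: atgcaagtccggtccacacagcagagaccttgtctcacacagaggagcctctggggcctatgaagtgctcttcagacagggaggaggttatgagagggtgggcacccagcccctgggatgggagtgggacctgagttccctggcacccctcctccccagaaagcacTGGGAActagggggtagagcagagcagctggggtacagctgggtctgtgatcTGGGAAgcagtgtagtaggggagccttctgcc

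The core began 174 bases before the start in Cd3g and 123 bases before it in Cd3e. In Ptcra it began 84 and 32 bases before the start, and this promoter also held the E box CAGCTG, bound by E proteins, at 60 and 49 bases before the start. The promoter of Cd3d, 8.09-fold higher, held no match in this window, and the genes shown were chosen for having one. Such matches were common. Of 32851 promoters of this length, 21.6% held TGGGAA on either strand, against 20.7% of the 641 promoters of genes at least 2-fold higher and 23.3% of the 468 promoters of genes at least 2-fold lower. Of the 15 Notch target genes with an entry, 3 had it, namely Cd3g, Ptcra and Hes5. Dtx1, Nrarp and Notch3 had no match in this window. The motif AGATAA, bound by GATA factors, was in 10.3% of promoters of higher genes, 7.91% of those of lower genes, 8.45% of those of measured genes and 9.99% of all. CAGGAAG, bound by Ets factors, was in 13.7%, 12.0%, 10.1% and 10.8% of the same sets, and CAGCTG in 13.3%, 12.2%, 12.7% and 13.0%. For TGGGAA the share in promoters of measured genes was 20.9%. A match is a run of letters and was not shown here to be bound.

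Signalling genes downstream of the T cell receptor were higher in the control cells for adaptors and some kinases, and level for others. Of 21 measured, 12 were at least 2-fold higher and none was at least 2-fold lower, with a median of 1.62. Rasgrp1, which activates Ras below the receptor, read 6.78 in LMPPs and 11.92 in control cells. Txk, a Tec family kinase, read 6.28 and 10.98, and Prkcq, the protein kinase C of the T cell synapse, 7.49 and 10.99. The adaptors Lat (9.29 and 12.40), Grap2 (8.52 and 11.48) and Fyb (8.63 and 11.25) were all higher. Themis, a thymocyte signalling protein, differed by 2.87, Sh2d2a by 2.70, the adhesion receptor Cd2 by 2.46, Plcg1 by 2.20, Skap1 by 1.62 and Lcp2 by 1.22. Zap70, the kinase that binds phosphorylated CD3 chains, read 7.34 and 7.08, and Fyn read 10.25 and 10.21. Cd5 (-0.48) and Cd6 (-0.18), which restrain receptor signals in more mature cells, were not higher. Lck is not analysed here.

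Coreceptors of later thymocytes were level. Cd4 read 5.92 in LMPPs and 6.03 in control cells, Cd8a 6.61 and 6.80, and Cd8b1 6.34 and 6.35. Of the 13 coreceptor and costimulatory genes, 3 were at least 2-fold higher and 1 was at least 2-fold lower, with a median of 0.48. Ctla4, an inhibitory receptor of activated T cells, read 7.13 and 12.20, 33.6-fold higher, with 8.97 and 9.37 in the Tcf1 arrays. Cd160 differed by 1.54 and Tnfrsf9 by 1.26. Cd96, an adhesion receptor of T and NK cells, was the lower one, at 11.49 and 8.18. Cd28 differed by -0.45 and Cd27 by 0.62.

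Among genes that cut and join antigen receptor segments, the recombinase pair was higher in the control cells and most end-joining genes were within 2-fold. Of 15 measured, 5 were at least 2-fold higher and none was at least 2-fold lower, with a median of 0.43. Rag1 read 6.68 in LMPPs and 10.42 in control cells, 13.4-fold higher, against 7.10 and 7.28 in the Tcf1 arrays. Its partner Rag2 read 7.24 and 8.83, against 6.37 and 6.79. Dntt, which adds bases at the joints, read 9.66 and 11.81, against 9.77 and 10.06. For Rag1 and Rag2 the control array was the high one, and for Dntt the LMPP and Tcf1 arrays lay together below it. Of the end-joining genes, Lig4 differed by 1.46 and Xrcc6, the Ku70 subunit, by 1.06, while Xrcc5 (0.37), Xrcc4 (0.32), Nhej1 (0.16) and Prkdc (0.03) were within 2-fold. Polm, a polymerase of end joining, differed by 0.92.

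Cytokine receptors differed in both directions. Of 12 measured, 5 were at least 2-fold higher and 3 at least 2-fold lower, with a median of 0.67. Il7r, the receptor chain for the cytokine supplied in the culture, read 9.27 in LMPPs and 11.51 in control cells, and 12.11 and 12.33 in the Tcf1 arrays. Il17rb read 7.46 and 11.41, 15.5-fold higher, Ifngr1 differed by 1.43 and Il4ra by 1.35. Il18r1, at 1.00, was under 2-fold after renewed quantile normalization. The lower genes were Il6ra (-1.77), the receptor of a cytokine in the transduction medium of both groups, Il21r (-1.10) and Ifngr2 (-1.07). Among 14 homing and adhesion genes 4 were higher and 1 lower, with a median of 0.47. Ccr4, a chemokine receptor of early thymocytes, read 6.40 and 10.07, and Itgae, the integrin chain that binds epithelial cadherin, 7.10 and 9.32. S1pr1 differed by 1.47 and Itgal by 1.02. Cd44, whose loss marks the passage from the second to the third CD4 and CD8 double-negative stage, read 10.32 and 7.90, against 9.39 and 9.51 in the Tcf1 arrays. Ccr9 (-0.33) and Ccr7 (0.56), which guide progenitors into the thymus, were within 2-fold.

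Several genes of gamma delta and innate-like T cells were also higher. Of 9 measured, 6 were at least 2-fold higher and none was at least 2-fold lower, with a median of 2.03. Gzma, a granule protease, read 7.25 in LMPPs and 11.82 in control cells, with 7.89 and 7.94 in the Tcf1 arrays. Blk, a Src family kinase shared by B cells and some gamma delta T cells, read 7.53 and 10.84, with at most 7.63 in the Tcf1 arrays. Cd163l1 read 7.99 and 11.72, and Zbtb16, which encodes PLZF, 7.90 and 9.94. Maf differed by 1.27. Sox13, an early gamma delta factor, differed by 0.14, Etv5 by -0.73 and Il23r by -0.32. NK and innate lymphoid genes, by contrast, split evenly. Of 24 measured, 4 were higher and 4 lower, and the median was -0.06. The higher ones were Gzma, Gzmb (2.39), Zbtb16 and Nkg7 (1.38). The lower ones were Eomes (8.47 and 6.47), Tyrobp (-1.38), Klrd1 (-1.35) and Nfil3 (-1.21). The defining NK genes Ncr1 (5.39 and 5.37) and Klrb1c (4.71 and 4.80) were within 2-fold, and Tbx21 and Prf1 differed by -0.16 and -0.28.

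**Figure D3:**
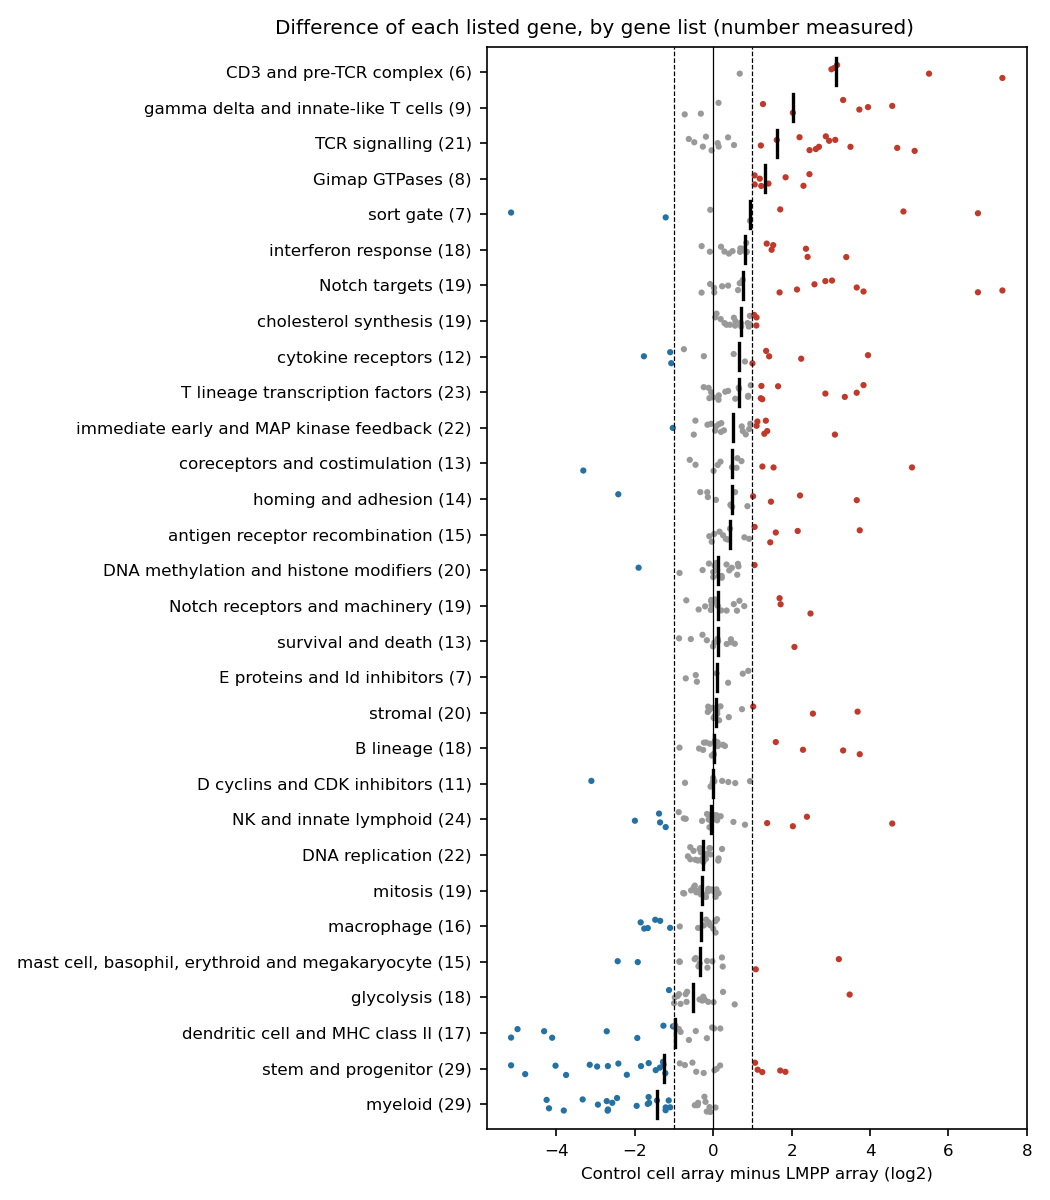
Difference in log2 signal, control cells minus LMPPs (horizontal axis), for each measured member of 30 gene lists (rows, ordered by median); black bars are list medians, dashed lines mark 2-fold, red and blue points lie beyond it. CD3 and pre-TCR complex genes have the highest median (3.13) and myeloid genes the lowest (-1.43).

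Many stem and progenitor genes were lower in the control cells. Of 29 measured, 16 were at least 2-fold lower and 5 at least 2-fold higher, with a median of -1.27. Without Flt3 and Kit, which the LMPP gate selects, 19 of 27 were at least 2-fold apart and the median was the same. Cd34, a surface sialomucin of progenitors, read 12.67 in LMPPs and 8.91 in control cells, and 12.76 and 12.86 in the Tcf1 arrays. Mef2c, a factor of lymphoid and myeloid progenitors, read 11.58 and 7.56, and Lmo2, a bridging protein of stem cell complexes, 11.67 and 8.52. Hoxa9 read 10.23 and 7.27 and its partner Meis1 read 10.16 and 7.48. Both were at least 10.66 in the Tcf1 arrays, so the control array alone was low. Adgrl4, an adhesion receptor shared with endothelium, read 10.82 and 6.03, and it was also low in the Tcf1 arrays at 6.30 and 6.77. Bcl11a differed by -2.42, Spi1, which encodes the myeloid and progenitor factor PU.1, by -2.20, Hlf by -1.84 and Gfi1b by -1.65. Hoxa5 (-1.28) and Hoxa7 (-1.22) were lower as well, while Hoxa10 differed by -0.43.

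Not all progenitor genes were lower. Besides Kit, Slamf1 (1.84), Zfpm1 (1.25), Erg (1.13) and Cd48 (1.07) were higher. Angpt1, a secreted ligand of the Tie2 receptor, read 9.03 in LMPPs and 9.11 in control cells, and 5.82 and 6.10 in the Tcf1 arrays. Nrp1, a co-receptor for semaphorins and VEGF, read 9.66 and 9.70, against 6.95 and 6.88 in the Tcf1 arrays. For Angpt1 and Nrp1 the LMPP and control arrays lay together and both Tcf1 arrays were low. Lyl1 (-0.24), Mycn (-0.53), Tal1 (-0.72) and Gata2 (-0.85) were within 2-fold.

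Myeloid genes formed the list with the largest share of lower members. Of 29 measured, 19 were at least 2-fold lower, none was at least 2-fold higher, and 28 read below the LMPP level, with a median of -1.43. Several granule genes of neutrophil precursors were lower. Elane, neutrophil elastase, read 11.77 in LMPPs and 7.58 in control cells, Prtn3, proteinase 3, 11.36 and 8.03, and Mpo, myeloperoxidase, 12.08 and 9.39. Ms4a3, a marker of granulocyte and monocyte progenitors, read 10.53 and 6.28, and Ngp 9.15 and 5.34. Other neutrophil genes were split. Ltf (-0.47), Camp (-0.40) and Fcnb (-0.16) were within 2-fold, while Lcn2 (-2.68), Mmp8 (-2.45), S100a8 (-1.43) and S100a9 (-1.21) were lower. Of the receptors, Csf2rb differed by -2.57, Csf1r by -1.67 and Csf3r by -1.13, while Csf2ra differed by -0.40. Of the transcription factors, Irf8 differed by -2.72 and Cebpa by -1.65, and Cebpb was level at 0.06. Genes of phagocytes were mixed. Cybb, the NADPH oxidase subunit, differed by -2.94 and Lyz2, a lysozyme, by -1.95. The Fc receptor gene Fcgr1 (-0.09) and the lipopolysaccharide co-receptor gene Cd14 (-0.22) were within 2-fold. Both already read below the array median in LMPPs, at 6.84 and 6.35. The control cells were sorted against Mac1 and Gr1 and the LMPPs against lineage markers, and the part of these gates in the difference was not tested. Without Itgam and Ly6g, 18 of 27 myeloid genes were at least 2-fold lower, with a median of -1.63.

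Of 16 macrophage markers, 6 were lower and none higher, with a median of -0.31. The lower ones were Lgmn (-1.85), Mgl2 (-1.76), Csf1r (-1.67), Cd68 (-1.48), Ctss (-1.35) and Mrc1 (-1.10). Adgre1, the F4/80 antigen, was within 2-fold, at 6.89 in LMPPs and 6.51 in control cells, and C1qa read 6.64 in both. Several MHC class II genes differed by more, though H2-DMa, which helps to load them, differed by -0.83. Cd74, the chain that holds class II molecules until they are loaded, read 11.21 and 6.22, 31.8-fold lower, H2-Aa read 10.18 and 5.86, and H2-Ab1 10.31 and 6.20. In the Tcf1 arrays Cd74 read 10.18 and 11.32. Ciita, the coactivator that switches on class II genes, differed by -0.88 from a level of 7.71. Of the 17 dendritic cell and class II genes 8 were lower and none higher, with a median of -0.97, and without Flt3 the count was 7 of 16. Itgax, the CD11c integrin chain, differed by -1.03 and Siglech, a lectin of plasmacytoid dendritic cells, by -1.27. Clec9a, Xcr1 and Zbtb46, genes of conventional dendritic cells, were level, at 5.51 and 5.54 for Clec9a, 5.97 and 6.15 for Xcr1 and 7.11 and 7.08 for Zbtb46.

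**Figure D4:**
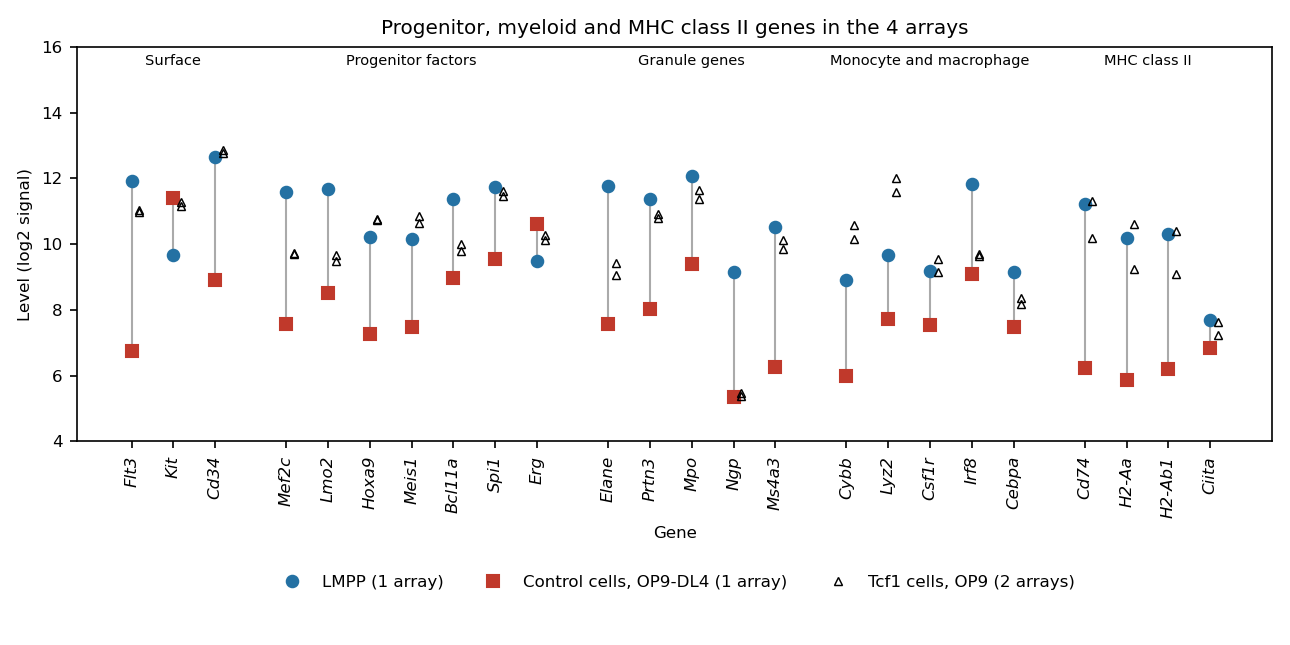
Log2 signal (vertical axis) of progenitor, myeloid and MHC class II genes (horizontal axis) in the LMPP array (blue circles), the control cell array (red squares) and the 2 Tcf1 arrays (open triangles); grey lines join LMPPs and control cells. Control cells lie below LMPPs for all genes drawn except Kit and Erg. The genes drawn are a selection from their lists, and some level or higher members, such as Cebpb, Angpt1, Nrp1, Slamf1 and Cd48, are not drawn.

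Markers of the remaining blood lineages and of the stroma were mostly level. Of 18 B lineage genes, the 4 at least 2-fold higher were Rag1, Rag2, Blk and Ly6d (2.29), which T lineage cells also use, and none was at least 2-fold lower. The defining B cell genes Pax5 (-0.08), Ebf1 (-0.36), Cd79a (-0.03) and Vpreb1 (-0.24) were within 2-fold, and the list median was 0.03. The 3 probe sets of Ighm, the mu heavy chain, ranged from -1.33 to 0.04. Of 15 genes of mast cells, basophils, red cells and platelet precursors, Cpa3 (9.37 and 12.58) and Itga2b (1.09) were higher and Car2 (-2.44) and Car1 (-1.92) lower, with a median of -0.34. Cpa3 is a mast cell protease. The mast cell receptor genes Fcer1a and Ms4a2 read 4.86 and 4.70, and 5.66 and 4.80, and the part of mast cells in the Cpa3 difference was not tested. Of 20 stromal genes, 3 were higher and none lower, with a median of 0.08. Timp3, a metalloproteinase inhibitor, read 7.20 and 10.89, Thbs1, thrombospondin, 9.57 and 12.12, and Pdgfrb 8.82 and 9.85. The collagens were level: Col1a1 read 8.12 and 8.16, Col1a2 7.60 and 7.68, and Col3a1 7.54 and 7.44. In the Tcf1 arrays Timp3 read 10.75 and 11.15 and Thbs1 12.72 and 12.67. The part of carried-over stroma in the higher genes was not tested.

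Proliferation genes differed little between LMPPs and control cells. None of 22 DNA replication genes and none of 19 mitosis genes was at least 2-fold apart. Small negative values prevailed in both lists: 19 of 22 replication genes and 15 of 19 mitosis genes read lower, with medians of -0.27 and -0.28. Mki67 read 12.02 and 12.11, and Top2a 11.59 and 11.65. The extremes were Gins1 (-0.65) and Aurka (-0.77). Ccnd1, the D cyclin that links growth signals to the cell cycle in many tissues, read 10.49 in LMPPs and 7.38 in control cells, 8.62-fold lower. Ccnd2 differed by -0.72 and Ccnd3, the D cyclin that thymocytes rely on, by 0.03. Of the inhibitors, Cdkn2c differed by 0.94 and Cdkn1b by 0.56.

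Metabolic lists differed in opposite directions, mostly by less than 2-fold. All 19 measured cholesterol synthesis and uptake control genes read higher in control cells, 3 of them at least 2-fold, with a median of 0.70. Those 3 were Hmgcs1 (1.11), the first committed enzyme, Dhcr7 (1.10), the last, and Sc5d (1.05). Lss (0.94), Mvd (0.94) and Cyp51 (0.91) came close. Of 18 glycolysis genes 14 read lower, with a median of -0.51, but only Tpi1 (-1.13) was at least 2-fold lower. Pfkp read 10.02 and 9.02 and passed 2-fold after renewed quantile normalization. Aldoa (-0.98), Ldha (-0.87) and the lactate exporter Slc16a3 (-0.91) were near it. Fbp1, which runs the phosphofructokinase step in reverse, was the exception, at 6.38 in LMPPs, 9.86 in control cells, and 6.05 and 6.44 in the Tcf1 arrays. The 2 probe sets of Hk1 differed, at 0.01 and 1.05.

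Interferon response genes read higher as a group. Of 18 measured, 6 were at least 2-fold higher, none was at least 2-fold lower, and 16 read above the LMPP level, with a median of 0.80. Rtp4 read 6.16 in LMPPs and 9.56 in control cells, Ddx58, the RNA sensor RIG-I, 7.72 and 10.13, and Oasl2 7.54 and 9.91. Xaf1 (1.53), Oas2 (1.49) and Irf7 (1.37) followed, while Mx1 (-0.29) and Oas1a (-0.08) were not higher. The control cells had received a retroviral vector, which the labels do not state for the LMPP array, and its part in this difference was not tested. In the Tcf1 arrays Rtp4 read 10.48 and 10.14 and Ddx58 10.67 and 10.53. The Tcf1 cells shared a retrovirus, cytokines, days in culture and sort gate with the control cells, and these cannot be told apart here.

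Immediate early and MAP kinase feedback genes were higher in 6 of 22 cases and lower in 1, with a median of 0.50. Dusp4, a nuclear phosphatase of MAP kinases, read 6.73 in LMPPs, 9.84 in control cells, and 6.42 and 6.91 in the Tcf1 arrays. The AP-1 genes Jun (1.38), Jund (1.30) and Fosb (1.13) were higher, and Fos differed by 0.73. Egr1 (0.20), Egr2 (0.08) and Egr3 (0.14), which pre-T cell receptor signals induce, were level. Dusp6, a phosphatase of ERK, was the lower one at -1.03.

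Survival genes were steady. Of 13 measured, Tnfsf10, the death ligand TRAIL, at 2.07, was the one at least 2-fold apart, and the median was 0.11. Bcl2 differed by 0.46, Bcl2l1 by 0.45 and Mcl1 by 0.11. Of 20 DNA methylation and histone modifier genes, Hdac7 (1.05), a class II deacetylase of thymocytes, was higher and Tet1, which oxidises methylcytosine, was lower, at 9.92 and 8.02, while Tet2 differed by -0.86. Dnmt1 (0.06) and Ezh2 (0.04) were level. All 8 measured Gimap genes, a cluster of lymphocyte GTPases, were at least 2-fold higher, from 1.06 for Gimap8 to 2.46 for Gimap4, with a median of 1.32. Gimap8 was under 2-fold after renewed quantile normalization.

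The 15 largest differences upward, among genes above the array median, held several genes outside these lists. Trgv1, a T cell receptor gamma segment, read 6.08 in LMPPs, 13.08 in control cells, and 13.16 and 13.09 in the Tcf1 arrays, though its family shares sequence. Khdc1a, which has close relatives, read 4.44 and 10.02 and was low in the Tcf1 arrays at 4.99 and 5.64. Fam20a, a secretory pathway protein, read 6.83 and 12.35, and Glp1r, a peptide hormone receptor, 5.90 and 10.62. Glp1r differed by 1.76 between the Tcf1 replicates. Psg17 (4.59), Fam169b (4.51) and Akr1c12 (4.42) completed them beside Cd3g, Il2ra, Trat1, Rasgrp1, Ctla4, Thy1, Txk and Gzma. Psg17 and Akr1c12 also belong to families of like sequence.

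The 15 largest differences downward were Flt3, Cd74, Adgrl4, H2-Aa, H2-Ab1, Ms4a3, Elane, Mef2c and Ngp from the lists and 6 others. Mpeg1, a pore-forming protein of phagocytes, read 10.43 in LMPPs and 5.63 in control cells, 27.9-fold lower. Gapt, a membrane adaptor of B and myeloid cells, read 11.74 and 7.34, and Gem, a small GTPase, 11.14 and 6.93. Gatm, an enzyme of creatine synthesis, differed by -4.19, Tfec, a macrophage transcription factor, by -3.97 and Ly86, a partner of the Toll-like relative RP105, by -3.88. Gem was also low in the Tcf1 arrays, at 7.16 and 7.71, whereas Tfec read 10.40 and 10.21 there against 10.22 in LMPPs.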

How the data were processed

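RNA of 4 samples was amplified and biotin-labelled from 250 ng and measured on Affymetrix whole-transcript arrays, as the labels' protocols state. Per the submitters' processing notes, normalization used RMA in Partek 6.5. The authors deposited log2 signal for each probe set; the base was inferred from RMA output and values between 3.44 and 14.45. No genome build was named in the sources used here.

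Of 35399 probe sets, 21789 carried 1 gene symbol, 1621 several and 11989 none. Where a gene had several probe sets (999 genes), the probe set of highest mean signal was kept, which left 19938 genes. Differences are the control array minus the LMPP array, without a test, and 2-fold was the minimum. The number of arrays limits the precision. Probe sets share no common scale, so levels of different genes were not compared.

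The members of 30 lists (544 entries, 41 of them not analysed here) were chosen with earlier results of these data known. Genes named are the 15 largest differences in each direction with the higher array above its median, without predicted and clone-named genes, the sort gate genes, and list members. Promoters came from RefSeq. Counting was tested on simulated data. Python 3.11.15, numpy 2.4.6, pandas 2.3.3 and matplotlib 3.10.9 were used. Alternatives covered normalization, centring, dim genes, probe set choice and the fold minimum.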

Additional observations from a re-analysis of the deposited data

Results flagged for a closer look

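For 7 listed genes the control array and both Tcf1 arrays lay at least 2-fold from the LMPP array in opposite directions. Both comparisons share the LMPP array, and the difference between them was not tested here. Mmp8, a neutrophil collagenase, differed from LMPPs by -2.45 in control cells and by 2.56 and 2.50 in the Tcf1 arrays. Mgl2, a macrophage lectin, differed by -1.76 in control cells and by 2.41 and 2.27 in the Tcf1 arrays. Lyz2 differed by -1.95, against 1.93 and 2.35, and Cybb by -2.94, against 1.24 and 1.67. Cd33, a myeloid sialic acid receptor, differed by -1.10, against 1.21 and 1.27. In the other direction, Ly6d, a surface antigen of lymphoid progenitors, differed by 2.29, against -1.48 and -1.21, and Gimap6 by 1.06, against -1.90 and -1.39.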

How the results depend on the processing

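Renewed quantile normalization, median centring, the mean of probe sets, and the choice of probe set over LMPPs and control cells or without either Tcf1 replicate kept the count of genes at least 2-fold apart between 1089 and 1104. Under these settings each list count stayed within 1.5 times its value, and no called gene named here changed sign. The count was 2694 (1302 higher, 1392 lower) at a 1.5-fold minimum, 303 (194 and 109) at 4-fold, and 1709 (979 and 730) over all 35399 probe sets. Of these 1709, 459 named no gene and 79 several genes. In the Tcf1 pair 483 and 223 probe sets of these classes were at least 2-fold apart, more than between LMPPs and control cells. Over genes above the 25th percentile of mean signal, medians moved for the sort gate (1.32), gamma delta (2.67) and B lineage lists (0.12). Over genes above the median signal, they were 1.32 and 2.67 for the first pair again, 2.28 for Notch targets, -0.42 for E proteins and Id inhibitors, 4.33 for the CD3 complex, 1.91 for T cell receptor signalling, 0.10 for NK, -1.35 for macrophage, -2.33 for dendritic cell, 1.30 for B lineage, -0.42 for mast cell and erythroid, and -0.67 for glycolysis genes. The NK median, close to 0, was thus above it and that of E proteins and Id inhibitors below it. Fewer members entered, so 1 glycolysis gene and 4 Gimap genes were then at least 2-fold apart. The mean signal was taken over all 4 arrays, the control array included. A gene high in control cells alone could pass through that array, so these filtered medians and counts add no separate support. Lists without sort gate genes were added after seeing the data. No paired analysis was possible because the groups compared have 1 array each. Signal over background was not used here, so low values have no lower limit of detection beside them.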

Other observations

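Among 633 groups of genes whose symbols start with the same letters and that have at least 5 measured members, 4 had at least 60% of members 2-fold apart, a rule chosen after the values were seen. Besides the Gimap genes these were the Gbp, Dtx and Sytl genes. Of 8 guanylate binding protein genes, GTPases that interferon gamma induces, 5 were higher in control cells and none lower, with a median of 1.84. Gbp11 read 7.44 in LMPPs and 11.35 in control cells, Gbp4 8.64 and 11.96, Gbp8 8.88 and 10.99, and Gbp9 7.50 and 9.58, though these genes are close in sequence. Gbp2b read 6.08 and 6.11, so not every member differed. Of the Deltex genes, Dtx3 differed by 1.85 and Dtx3l by 1.00 beside Dtx1, whereas Dtx4 differed by -1.41 and Dtx2 by -0.04. Of the synaptotagmin-like genes, which serve vesicle release, Sytl3 read 6.26 and 10.38 and Sytl2 6.46 and 9.26, and Sytl1 differed by 1.27, while Sytl4 (-0.14) and Sytl5 (-0.04) were level.

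Of 9 T cell receptor segments with a probe set of their own, 4 were higher in control cells and none lower. Besides Trgv1, Trdv2-2, a delta segment, read 5.17 in LMPPs, 9.16 in control cells, and 6.72 and 7.17 in the Tcf1 arrays. Trav14-1, an alpha segment with close relatives, differed by 1.47, and Trbv1, a beta segment, by 1.20. The remaining 5, all alpha segments, lay between -0.08 and 0.52.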
